A study of Drosophila melanogaster with 2 samples.

Results

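The genes of the Cpr family encode structural proteins of the Drosophila exoskeleton, and they were examined here for binding of the transcription factor Ets96B in prepupae. Members were the protein-coding genes of the Ensembl annotation whose name begins with Cpr followed by a digit. That gave 70 genes among 13968 protein-coding genes and 77 start sites among 19630. They lie on the arms 2L (5 genes), 2R (21), 3L (35), 3R (5) and X (4), and the rule used no binding value. The material was 2 libraries, biological replicates 2 and 3, of chromatin from whole transgenic Drosophila melanogaster prepupae aged 24 hours, both sexes mixed, that carry Ets96B with eGFP fused to its C-terminal end. Chromatin was precipitated through GFP, per the sample descriptions, although another field of the labels gives the antibody as Ets96B. The 2 libraries form 1 group, with no other stage, genotype or tissue to compare, and the control library was not analysed here. Whole animals mix the epidermis that makes cuticle with all other tissues, so a site bound in few cells and a site bound weakly in many cannot be told apart.

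Cpr proteins carry the chitin-binding domain known as the Rebers and Riddiford consensus. They are secreted by epidermal cells and become part of the chitin and protein matrix of larval, pupal and adult cuticle. Each gene takes its name from its position on the polytene map, and many stand in tandem arrays, so that Cpr72Ea, Cpr72Eb and Cpr72Ec are neighbours. In insects, cuticle genes are switched on and off in waves that follow the pulses of the steroid hormone ecdysone, and the prepupa is a stage at which cuticle for the pupa is made. Ets96B is a member of the PEA3 group of ETS factors, whose DNA-binding domain recognises sites around a GGAA core.

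The data were 4 lists of called peaks. A list of 8015 peaks reproducible between the libraries had signal values (the authors' enrichment score) of 148 to 5811, with a median of 293. The list called on both libraries pooled held 30000 peaks, with signal values from 23.5 upward and a median of 69.7. The replicate 2 list and the replicate 3 list held 30000 peaks each, with medians of 32.2 and 43.9. All 8015 reproducible summits were the 8015 strongest of the pooled list, so these lists are not independent, and the number of reads behind a peak is unknown. A gene counts as occupied here if the summit of a peak falls no farther than 500 bp from a transcription start site (TSS) of that gene.

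Few Cpr genes had a summit at their start site. In the reproducible list 2 of 70 were occupied (2.86%, 95% Clopper-Pearson interval 0.348 to 9.94), where 20.5% of all protein-coding genes were. In the pooled list 8 of 70 were occupied (11.4%, 5.07 to 21.3) against 40.3% of all genes. Replicate 2 alone gave 8 of 70 (11.4%) against 45.5%, and replicate 3 alone gave 10 of 70 (14.3%, 7.07 to 24.7) against 40.6%. In all 4 lists the Cpr share was thus below that of all genes, and the interval of the Cpr share ended below the share of all genes. The intervals treat genes as independent and cover counting error only. A summit in both replicate lists was found at 6 Cpr genes (8.57%) against 36.6% of all genes, and a summit in at least 1 list at 12 (17.1%) against 49.8%.

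The difference from all genes was much smaller once gene structure was matched. Cpr genes are short, with a median length of 1093.5 bp against 2164.5 bp over all genes, and 90% of them have a single start site against 73.5% of all genes. Only 6 have a start site of another gene within 1 kb. Among genes of at most 2 kb with 1 start site and no other start site within 1 kb, a comparison chosen after seeing the data, 2 of 48 Cpr genes (4.17%, 0.509 to 14.3) and 174 of 3459 genes in all (5.03%) were occupied in the reproducible list. The pooled list gave 10.4% of these Cpr genes against 15.8%. Replicate 2 gave 6.25% against 17.3%, and replicate 3 gave 10.4% against 15.6%. The Cpr share was the lower one in each list, but in the reproducible and the pooled list and in replicate 3 the share of all such genes lay inside its interval. Against genes of like structure, then, occupancy of Cpr start sites in the reproducible list was near the background.

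**Figure D1:**
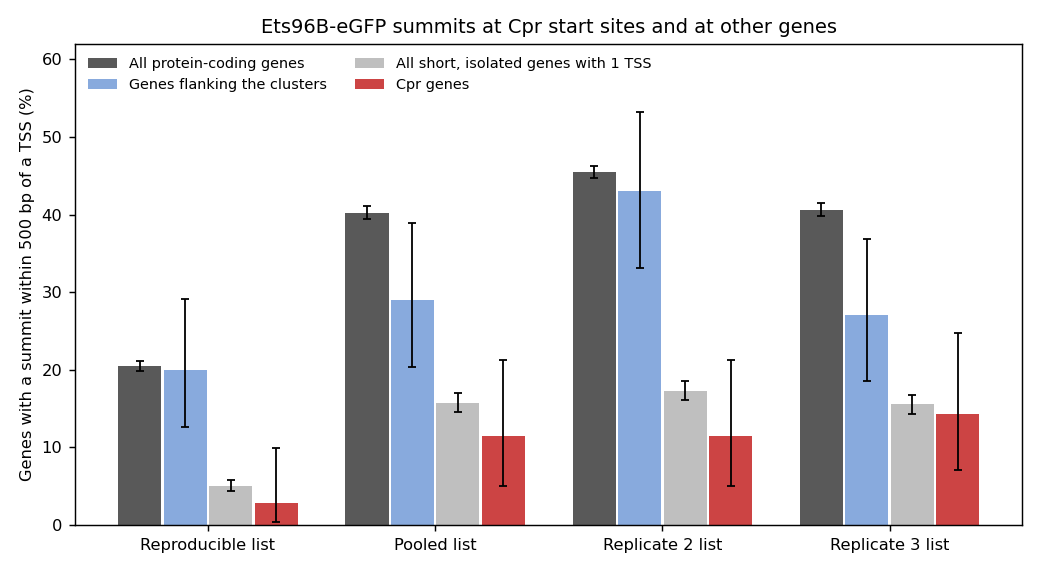
Percent of genes with a summit within 500 bp of a start site (vertical axis) in the 4 lists, for all protein-coding genes, the 100 genes flanking Cpr clusters, all short isolated genes with 1 start site, and the 70 Cpr genes. Bars are shares and whiskers their 95% Clopper-Pearson intervals: the Cpr bar stands at 2.86% in the reproducible list against 20.5% for all genes and 5.03% for short isolated ones.

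The 2 Cpr genes occupied in the reproducible list were Cpr72Ea on 3L and Cpr12A on X. At Cpr72Ea, which starts at position 16362603 on the plus strand (dm6, the Release 6 genome), the summit lay 333 bp upstream, at 16362270. Its signal value was 235, rank 5062 of 30000 in the pooled list. Replicate 2 had a summit 1 bp away, at 16362271, with a signal value of 101 and rank 4636, and replicate 3 had one at 16362304 with a signal value of 131 and rank 5730. A weaker pooled summit lay at 16362469, 134 bp upstream of the start, with a signal value of 103. At Cpr12A, which starts at 13543643 on the plus strand, the reproducible summit was at 13543339, 304 bp upstream, with a signal value of 154 and pooled rank 7705. The replicate summits lay at 13543329 (signal value 49.0) and 13543289 (106). Both genes thus had a peak of moderate or low rank just upstream of the start in both libraries. Among the strongest 8015 peaks of each replicate, replicate 2 marked Cpr72Ea only and replicate 3 marked both genes.

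The DNA under these summits is shown from the RefSeq copy of the Release 6 genome, 60 bases to each side, on the plus strand. Capitals mark matches, on either strand, to any of 8 words that were searched. For the TATA box the word was TATAAA. Sites with the core bound by ETS factors were represented by CCGGAA and, as another form of such a site, by CAGGAA. Homeodomain proteins were represented by TAATTA, and the GAGA factor by GAGAG. The promoter factor DREF was represented by TATCGATA, nuclear receptors by AAGGTCA, and proteins of the Gata group by TGATAA. The first window is chr3L:16362210-16362330, the second chrX:13543279-13543399.
Cpr72Ea summit: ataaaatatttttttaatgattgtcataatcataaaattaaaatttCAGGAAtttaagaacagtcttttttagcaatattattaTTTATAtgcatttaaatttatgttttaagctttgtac
Cpr12A summit: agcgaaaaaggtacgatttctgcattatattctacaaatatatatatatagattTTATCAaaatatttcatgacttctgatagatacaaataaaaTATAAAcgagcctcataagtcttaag
The Cpr72Ea window holds CAGGAA, an extended GGAA core, which is present in 3.67% of the 8015 reproducible windows of this length, and TATAAA on the minus strand, present in 29.0%. The Cpr12A window holds TGATAA on the minus strand, present in 11.0%, and TATAAA. Neither holds CCGGAA, the other GGAA word searched, which is in 1.38% of all windows. Both windows were low in G and C, at 16.5% for Cpr72Ea and 24.8% for Cpr12A, beside a median of 30.6% over all reproducible windows (quartiles 26.4 and 36.4). A match describes the letters present and does not show a bound site.

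Cpr72Eb stood just outside the threshold and near a much stronger summit than either occupied gene. That summit, at 16364380, lay 519 bp upstream of the Cpr72Eb start and had a signal value of 960, rank 778. A further summit, at 16361394 and 1209 bp upstream of Cpr72Ea, was the strongest of the cluster with a signal value of 1537 and rank 291. Both were intergenic. Their windows, chr3L:16361334-16361454 and chr3L:16364320-16364440, are given with the same words in capitals because they are the strongest summits of the array.
Upstream of Cpr72Ea: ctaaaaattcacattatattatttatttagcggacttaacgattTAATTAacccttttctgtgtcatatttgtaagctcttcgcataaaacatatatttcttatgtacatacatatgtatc
Upstream of Cpr72Eb: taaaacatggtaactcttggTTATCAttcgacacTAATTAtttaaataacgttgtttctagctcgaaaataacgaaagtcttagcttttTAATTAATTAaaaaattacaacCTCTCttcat
Both hold TAATTA, found in 12.7% of all reproducible windows, and the Cpr72Eb window also holds TGATAA and GAGAG on the minus strand. Neither holds CCGGAA or CAGGAA.

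The promoters of these genes were compared through the TATA word. TATAAA on the gene's own strand between 45 and 15 bases before the start was present at 43 of 77 Cpr start sites (55.8%, 44.1 to 67.2). The same was true of 7.68% of 19622 start sites over all genes and of 3.51% of the 3737 start sites with a reproducible summit within 500 bp. Its first base lay at −45 to −22, with a median of −28. The 120 bases before the start, on the gene's own strand with TATAAA in capitals, are shown for the Cpr72E array, for Cpr12A, for Cpr65Ea and Cpr97Eb, which had a pooled summit, and for Cpr64Aa and Cpr76Ba, which stand in arrays without one. Their positions are chr3L:16362483-16362602 (plus), chr3L:16364779-16364898 (plus), chr3L:16367341-16367460 (minus), chrX:13543523-13543642 (plus), chr3L:7086609-7086728 (minus), chr3R:27091131-27091250 (minus), chr3L:4209179-4209298 (minus) and chr3L:19518333-19518452 (minus), in the order printed.
Cpr72Ea: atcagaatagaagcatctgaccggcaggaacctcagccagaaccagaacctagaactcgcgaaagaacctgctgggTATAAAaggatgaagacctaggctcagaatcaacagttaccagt
Cpr72Eb: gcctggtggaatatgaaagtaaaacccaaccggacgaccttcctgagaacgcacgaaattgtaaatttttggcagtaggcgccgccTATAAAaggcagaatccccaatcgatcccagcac
Cpr72Ec: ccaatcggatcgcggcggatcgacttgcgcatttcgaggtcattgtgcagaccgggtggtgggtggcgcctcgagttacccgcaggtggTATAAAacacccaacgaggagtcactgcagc
Cpr12A: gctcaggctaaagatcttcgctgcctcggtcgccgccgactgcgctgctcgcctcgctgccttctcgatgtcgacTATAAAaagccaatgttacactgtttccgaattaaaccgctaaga
Cpr65Ea: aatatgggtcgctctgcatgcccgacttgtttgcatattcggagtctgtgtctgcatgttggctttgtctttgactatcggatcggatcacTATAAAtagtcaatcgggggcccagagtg
Cpr97Eb: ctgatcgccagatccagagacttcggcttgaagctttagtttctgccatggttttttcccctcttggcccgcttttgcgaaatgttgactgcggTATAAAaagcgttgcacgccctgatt
Cpr64Aa: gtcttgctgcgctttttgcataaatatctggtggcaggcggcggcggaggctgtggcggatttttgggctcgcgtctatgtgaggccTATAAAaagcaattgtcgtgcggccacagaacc
Cpr76Ba: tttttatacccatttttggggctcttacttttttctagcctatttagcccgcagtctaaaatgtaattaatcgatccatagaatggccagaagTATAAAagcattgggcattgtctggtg
These 8 were chosen among the promoters that carry the word, and they come from occupied and unoccupied genes alike.

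Over all genes, 11.2% of those with TATAAA in this stretch were occupied (166 of 1476) against 21.6% (2697 of 12484) of those without, and the pooled list gave 24.1% against 42.2%. By gene, 43 of 70 Cpr genes (61.4%) held the word, against 10.6% of all. The 2 occupied Cpr genes were both among the 43, and 0 of 27 Cpr genes without the word were occupied. In the pooled list the counts were 7 of 43 (16.3%) and 1 of 27. Within the family the order of the shares was therefore opposite to that over all genes, on counts too small to separate them.

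The other words in the 250 bases before the start were read on both strands. CCGGAA was in 3.90% of Cpr windows against 5.40% of all, CAGGAA in 10.4% against 7.57%, TAATTA in 15.6% against 17.8% and GAGAG in 33.8% against 29.1%. TATCGATA, the core of the DREF site found at housekeeping promoters, was in 0 of 77 against 6.91%, and AAGGTCA in 0 of 77 against 1.85%. TGATAA was in 13.0% against 19.98%. The median G and C content of these windows was 45.2% at Cpr genes and 38.4% over all genes.

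Below the reproducible list, summits at Cpr genes were weak. Besides Cpr72Ea and Cpr12A, 3 genes had a summit within 500 bp in both replicate lists and in the pooled list. At Cpr57A the pooled summit lay 2 bp inside the gene with a signal value of 53.4, rank 18155, and the replicate summits lay at −76 and +20. A start site of Obp57d lies at the same position as that of Cpr57A, so these summits cannot be assigned to either gene alone. At Cpr51A pooled summits lay at +436 (signal value 41.0, rank 21605) and −143 (29.5, rank 26369), but replicate 2 had only the first position, at +441, and replicate 3 only the second, at −184. At Cpr97Ea pooled summits lay 158 bp upstream of the start site at 27086619 (54.6, rank 17919) and 155 bp downstream of the one at 27087778 (55.5, rank 17699). All 3 therefore ranked in the weaker part of the pooled list.

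At 3 further genes the pooled summit had a counterpart in replicate 3 and none in replicate 2. They were Cpr65Ea at −219 (signal value 74.4, rank 14279), Cpr97Eb at −53 (46.7, rank 19880) and Cpr100A at −260 (30.4, rank 25939). Cpr92F had summits in both replicate lists, at −441 in replicate 2 and at −320 and −119 in replicate 3, but none in the pooled list. Cpr62Ba was marked in replicate 3 alone, and Cpr67Fa1 and Cpr73D in replicate 2 alone. Of the 6 genes occupied in the pooled but not the reproducible list (8.57%, beside 19.8% of all genes), only Cpr65Ea belonged to a cluster.

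Distances to the nearest reproducible summit were also longer than usual. The median over the 70 genes was 13290.5 bp (quartiles 4689 and 23886.75) and over all genes of the arms 5695 bp (1088 and 15152). Medians in the pooled list were 6554 and 1748 bp, in replicate 2 they were 3363 and 902 bp, and in replicate 3 they were 6111 and 1721 bp. More than 20 kb separated 24 Cpr genes (34.3%) from such a summit, beside 18.7% of all genes. Among short isolated genes with 1 start site the medians were 12622 bp for Cpr genes and 9436.5 bp for all.

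The 5 genes nearest to a reproducible summit were Cpr12A (304 bp), Cpr72Ea (333), Cpr72Eb (519), Cpr62Ba (828) and Cpr65Ea (975). The summit nearest Cpr62Ba lay in its own intron and had pooled rank 4529, and that nearest Cpr65Ea was intergenic with rank 6519. The 5 farthest were Cpr92F at 74878 bp, Cpr50Ca at 52447 bp, and Cpr49Ac, Cpr49Ad and Cpr49Ab at 48994, 44255 and 43224 bp. The far end thus held several members of 1 array, whose distances share the same empty stretch.

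**Figure D2:**
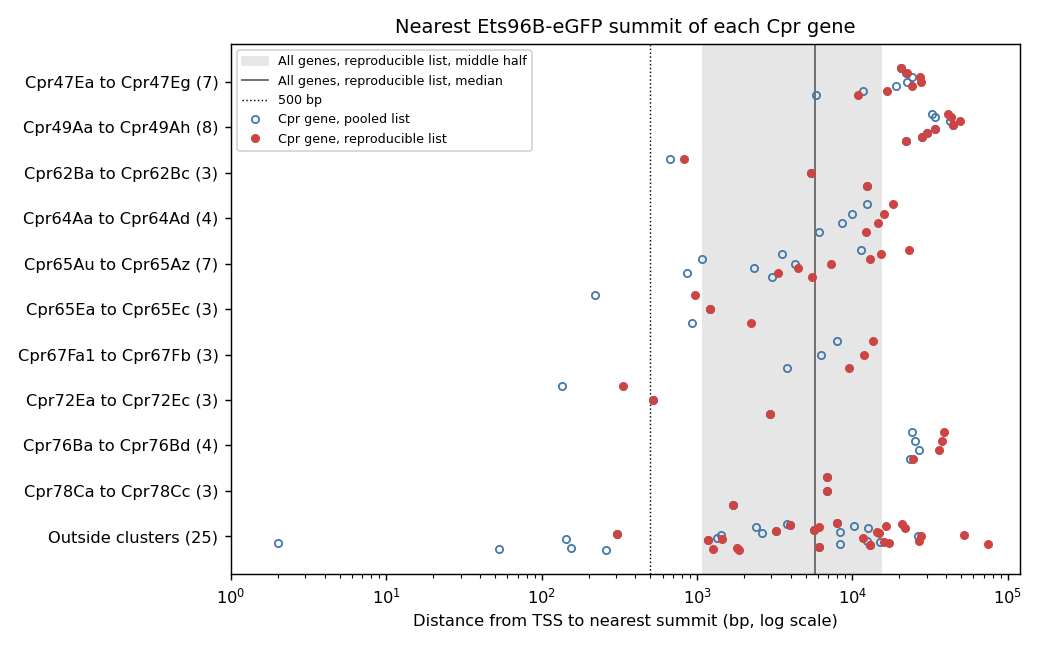
Distance in bp (log axis) from each Cpr gene's start sites to the nearest summit of the reproducible list (filled) and the pooled list (open), by cluster and for the 25 genes outside clusters. The grey band spans 1088 to 15152 bp, the quartiles over all genes in the reproducible list, and the 49A and 76B genes all lie to its right.

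Around start sites, all genes showed a sharp rise of reproducible summits just upstream that was not seen at Cpr genes, where that stretch held 2 summits. In the 500 bases before the start there were 16.2 reproducible summits for each 100 start sites over all genes (15.6 to 16.8) and 2.60 at Cpr genes (0.315 to 9.38). In the 500 bases after it there were 3.82 over all genes and 0 at Cpr genes, which allows up to 4.79. Under random placement at the density of each arm, 4.57 reproducible summits would fall within 500 bp of Cpr start sites, and 2 did, a ratio of 0.437 (Poisson interval 0.0529 to 1.58). Over all genes that ratio was 2.68. For the pooled list 11 summits stood against 16.8 (0.653, 0.326 to 1.17) and the ratio over all genes was 2.07. Replicate 2 gave 12 against 17.0 (0.706) with 2.32 over all genes, and replicate 3 gave 15 against 16.8 (0.893) with 2.07. The Cpr count was thus within counting error of random placement in these lists, whereas all start sites held more than 2 times as many summits as random placement gives. In the 500 bases before the start the Cpr rate was 10.4 in the pooled list, 13.0 in replicate 2 and 16.9 in replicate 3. The rates over all genes were 36.5, 41.1 and 36.2. Neither these rates nor the random placement were matched for gene structure.

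**Figure D3:**
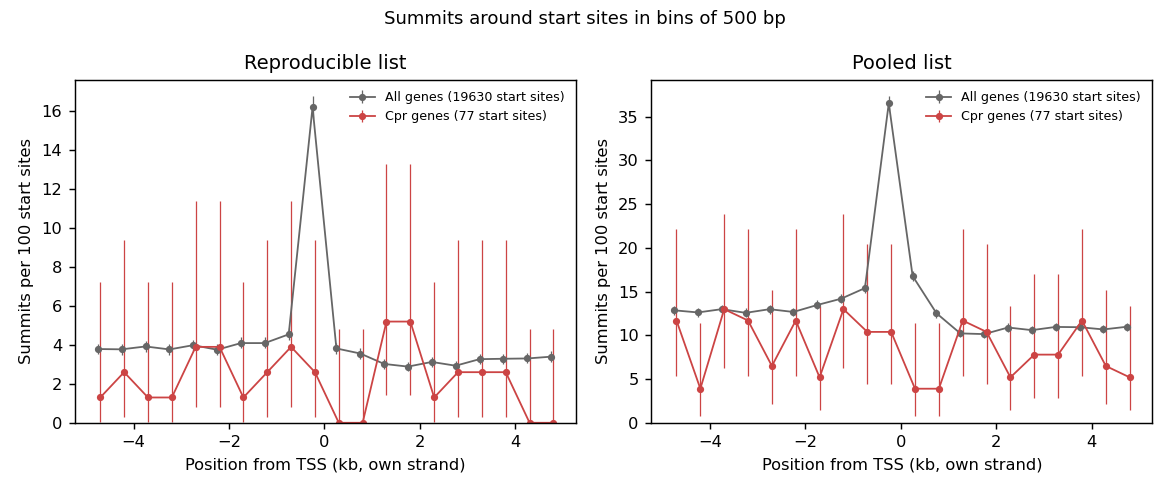
Summits for each 100 start sites in bins of 500 bp, by position from the start site in kb on the gene's own strand, for all genes (grey, 19630 start sites) and Cpr genes (red, 77), in the reproducible and the pooled list. Points are rates and whiskers exact 95% Poisson intervals: in the bin just upstream all genes reach 16.2 in the reproducible list and Cpr genes 2.60.

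Cpr genes no more than 20 kb apart were joined into clusters of at least 3, giving 10 clusters with 45 genes and leaving 25 genes outside. In the reproducible list 1 of 45 clustered and 1 of 25 other genes (4%) were occupied. In the pooled list the shares were 2 of 45 (4.44%, 0.543 to 15.1) and 6 of 25 (24%, 9.36 to 45.1). In replicate 2 they were 2 of 45 and 6 of 25, and in replicate 3 they were 3 of 45 (6.67%) and 7 of 25 (28%). Over all genes the shares were 20.5% in the reproducible list, 40.3% in the pooled list, 45.5% in replicate 2 and 40.6% in replicate 3. The intervals of clustered and other Cpr genes overlapped in every list. The cluster spans with 5 kb on each side cover 0.269 Mb. They held 9 reproducible summits, or 33.4 for each Mb (15.3 to 63.4), against 59.9 in the rest of the arms, a ratio of 0.557 (0.255 to 1.06). In the pooled list 38 summits gave a ratio of 0.629 (0.445 to 0.863), in replicate 2 the ratio was 0.645 (0.459 to 0.882) and in replicate 3 it was 0.596 (0.417 to 0.825). The shortfall exceeded counting error in the 3 longer lists and not in the reproducible list. These intervals treat summits as independent, although some stood close together, such as the pooled ones at 16362270 and 16362469. The pooled and replicate lists also rest on the same libraries, so their ratios are not separate findings.

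The clusters were divided into 4 without a pooled summit in the span and 5 kb on each side, called empty here, and 6 with 1 or more. This division was made from their own counts and is given as a description. It fixes both counts of 0 given below, since every reproducible summit is also in the pooled list. Of the 6, the Cpr67F and Cpr78C arrays had pooled summits only in the margins. The arrays Cpr47Ea to Cpr47Eg, Cpr49Aa to Cpr49Ah, Cpr64Aa to Cpr64Ad and Cpr76Ba to Cpr76Bd, with 23 genes, held 0 reproducible and 0 pooled summits in the same windows, where the density of their arms gives 7.84 and 28.8. Replicate 2 had 3 summits there against 29.5, and replicate 3 had 1 against 28.7. The other 6 arrays, with 22 genes, held 9 reproducible summits against 8.86 and 38 pooled summits against 32.3. How each set of arrays compares with its arms is thus fixed in part by the division, and no conclusion is drawn from it.

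The empty arrays differed in how far they lay from a reproducible summit. The Cpr49A array spans 38.5 kb of 2R (12376626 to 12415170) with 8 Cpr and 7 other genes, between CG13159 and CG13157. Its nearest summit was 20784 bp away at the promoter of DUBAI (rank 1629), and the stretch free of reproducible summits measured 101 kb. Of all genes, 15.6% lie in a stretch as long. The Cpr76B array spans 20.7 kb of 3L (19517552 to 19538289) with 4 Cpr genes between CG9452 and Dred. It had no summit in any of the 4 lists within 5 kb, its nearest reproducible summit was 19103 bp away near CG9300 (rank 1313), and its free stretch was 113 kb, a length reached by the stretches of 13.7% of all genes. The Cpr47E array spans 26.7 kb of 2R (11251751 to 11278445) with 7 Cpr genes between CG43112 and CG9067, and its nearest summit was 10796 bp away near Fbl6 (rank 752). Its free stretch was 56.5 kb, and 32.5% of all genes lie in a stretch as long. The Cpr64A array spans 8.58 kb of 3L (4207838 to 4216414) with 4 Cpr genes between CG15005 and ImpL2. Its nearest summit, 11124 bp away with rank 5977, was at the promoter of ImpL2, an ecdysone-inducible gene whose secreted product binds insulin-like peptides. The free stretch there was 49.2 kb, a length reached for 37.3% of all genes. These array distances run from the edge of the span and are not of 1 kind with the gene distances given above. By gene, distances ran from 10796 bp (Cpr47Eg) to 27435 bp (Cpr47Ed) in the Cpr47E array. In the Cpr64A array they ran from 12159 bp (Cpr64Ad) to 18360 bp (Cpr64Aa). Only Cpr47Eg, Cpr64Ac and Cpr64Ad among these genes lay below the upper quartile over all genes, 15152 bp. Over the 70 Cpr genes the median stretch was 49.2 kb beside 33.5 kb for all genes.

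Counts for the other 6 arrays are for the span with 5 kb on each side. Cpr72Ea to Cpr72Ec spans 4.74 kb of 3L (16362603 to 16367340) between ringer and CG4842. With its margins it held the 3 reproducible summits described above, where its arm's density gives 0.968, but only the one upstream of Cpr72Eb lay inside the span. Pooled summits numbered 8, beside 3.53, and 1 of them lay inside the span, while 4 lay in ringer or at its promoter. The array Cpr65Ea to Cpr65Ec spans 7.84 kb (7086003 to 7093841) between CG8641 and form3 and held 2 reproducible summits, both intergenic and inside the span. They lay at 7087583 (signal value 184, rank 6519) and 7090989 (242, rank 4918), 975 bp upstream of Cpr65Ea and 2202 bp upstream of Cpr65Eb. The summit at 7090989 was also 2215 bp upstream of Cpr65Ec, so its position does not single out Cpr65Eb. The expected number was 1.17, and in the pooled list 7 summits stood beside 4.27, with 5 of them inside the span.

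The array Cpr65Au to Cpr65Az is the widest of these, with 7 Cpr genes among 11 others over 30.3 kb (6131242 to 6161589) between Lcp65Ag3 and Prdm13. It held 1 reproducible summit, at 6155311 with a signal value of 237 and rank 5014, intergenic and 2066 bp from the nearest gene start, that of CG13297. Its pooled summits (9, expected 9.67) included none within 500 bp of a Cpr start, while 3 other genes of the array had one: Lcp65Ad at 92 bp, CG13297 at 396 bp and Acp65Aa, an adult cuticle protein gene, at 435 bp. The 2 near-identical genes Cpr65Ax1 and Cpr65Ax2 stand here. Of the 32-base words within 500 bp of their starts, 23.7% and 27.9% occur once in the genome, so reads from there can fit more than 1 place. At 73 of the 77 Cpr start sites (94.8%) at least 95% of such words were unique, beside 95.5% of all start sites.

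In the remaining arrays many pooled summits lay in the margins. Cpr62Ba to Cpr62Bc (18.0 kb, 1824129 to 1842084, between GV1 and CNMa) held 1 reproducible summit, in the intron of Cpr62Ba at 1829770, and 8 pooled summits of which 4 lay within GV1. Cpr67Fa1 to Cpr67Fb (4.70 kb, 10889990 to 10894693, between OXA1L and Aps) held 0 reproducible summits, the nearest being 8948 bp away near Aps (rank 7100), and its 4 pooled summits all lay nearest to Aps. Replicate 2 listed 10 summits there and replicate 3 listed 3. Cpr78Ca to Cpr78Cc (9.31 kb, 21291860 to 21301171, between pzg and CG11309) had its 2 reproducible summits in the margin, with 0 inside the span. The nearer was 1101 bp past its end, at 21302272 in an exon of CG11309 (rank 4933). The other, at 21304565, had a signal value of 3632 and rank 25 and lay at the CG11309 promoter, within 5 kb of the array.

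**Figure D4:**
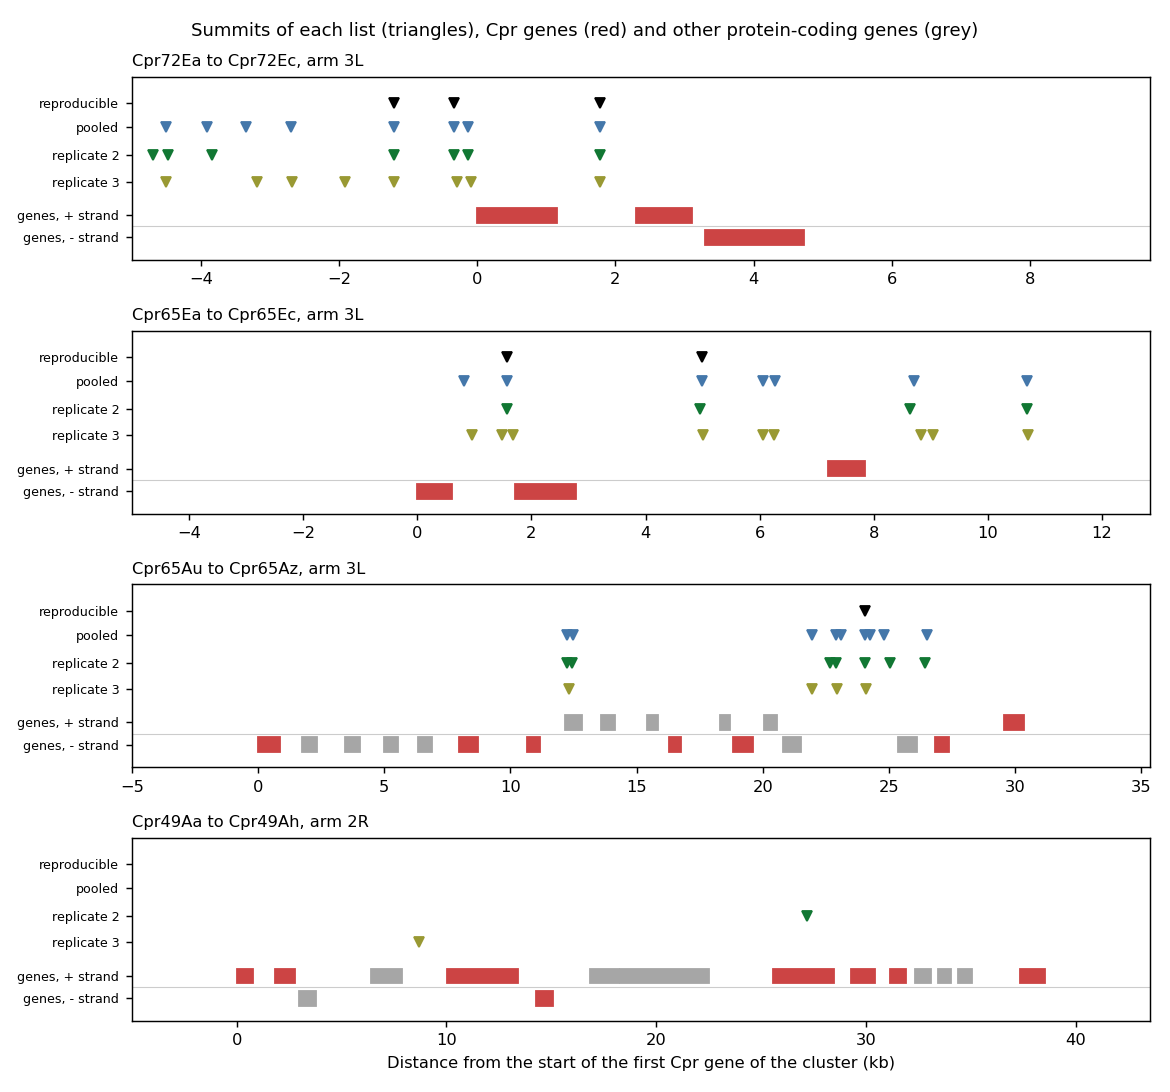
Maps to scale of 4 arrays with 5 kb on each side, by distance in kb from the start of the array. Triangles mark summits of each list, and boxes mark Cpr genes (red) and other protein-coding genes (grey) by strand: the Cpr72E array has 3 reproducible summits and the Cpr49A array none, with 1 summit in each replicate list.

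Genes flanking the clusters were occupied at the background rate in the reproducible list. Of the 5 protein-coding genes on each side of the 10 clusters, 20 of 100 (20%, 12.7 to 29.2) had a reproducible summit within 500 bp, beside 20.5% of all genes and 2.86% of Cpr genes. By order from the cluster outward, the neighbours gave 4, 4, 3, 4 and 5 of 20, with no gradient. In the pooled list 29% of the flanking genes (20.4 to 38.9) were occupied against 40.3% of all. In replicate 2 it was 43% (33.1 to 53.3) against 45.5%, and in replicate 3 it was 27% (18.6 to 36.8) against 40.6%. The flanking share was thus below that of all genes beyond counting error in the pooled list and in replicate 3, but not in the reproducible list or in replicate 2. Around the 4 empty arrays 4 of 40 neighbours were occupied and around the other 6 arrays 16 of 60. All 4 of the former were neighbours of the Cpr64A array, and the flanks of Cpr47E, Cpr49A and Cpr76B had 0 of 10 each. The arrays were divided by pooled summits in windows whose 5 kb margins reach some of these neighbours, such as CG11309. The difference between the 2 sets of neighbours is thus partly fixed by the division, and no conclusion is drawn from it.

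The strongest flanking peak was that of rank 25, shared by CG11309 and CG7632 beside the Cpr78C array. A summit with a signal value of 918 served loj and CG10467 beside the Cpr65A array. Next came Sqor (773), GV1 (706), D19B (695), CG10274 (391), HBS1 with CG12025 (212), klu (210), Agpat3 (208), ago (207) and ImpL2 with CG46460 (200). Among these signal values, that of Cpr72Ea (235) lies between CG10274 and HBS1, and that of Cpr12A (154) lies below all of them. Of 24 non-Cpr genes inside the clusters, 0 were occupied in the reproducible list (up to 14.2%) and 3 in the pooled list (12.5%), those of the Cpr65A array named above. The 24 include cuticle protein genes, namely Lcp65A genes, Acp65Aa and Edg78E. These are counted again among the other chitin-binding genes below, as is the flanking gene Lcp65Ag3.

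Reproducible summits lay in the bodies of 4 Cpr genes. With 500 bp added at either end of the body, 7 of 70 genes (10%, 4.12 to 19.5) held one, beside 28.3% of all genes, a comparison not matched for gene length. Cpr73D held 3, of which the strongest was at 16941403 with a signal value of 325 and rank 3580. Another of them, at 16956519 (rank 7993), lay in the bodies of both Cpr73D and Ogdh, 755 bp from an Ogdh start. Cpr97Ea held 1 in an intron at 27084814 (389, rank 2896), the strongest in any Cpr gene body. Cpr62Ba held the intronic summit at 1829770 given above, and the summit in Cpr51A lay at the promoter of CG30197.

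Other genes of cuticle making were set beside the Cpr family, from lists chosen with earlier results of these data known. The shares of all genes to read them against are 20.5% in the reproducible and 40.3% in the pooled list. Of 29 other genes for cuticle proteins of the chitin-binding class, such as the Lcp and Ccp84A genes, 0 were occupied in the reproducible list (up to 11.9%) and 2 in the pooled list (6.90%, 0.846 to 22.8). Of 25 Tweedle genes, which encode another class of cuticle protein, the counts were 0 (up to 13.7%) and 1 (TwdlE; 4%, 0.101 to 20.4). The 9 peritrophin-like genes gave 0, which allows up to 33.6%, and 3 in the pooled list (Gasp, obst-A, obst-B; 33.3%, 7.49 to 70.1), near the background. Among 14 genes for chitin synthesis, assembly and turnover 4 were occupied (28.6%, 8.39 to 58.1), an interval that holds the background, and the pooled list gave 12 (85.7%, 57.2 to 98.2). They include kkv, which encodes chitin synthase, and mmy, which makes its substrate. Of 10 tanning genes 1 was occupied, Pu (10%, 0.253 to 44.5), and 4 in the pooled list with Ddc among them (40%, 12.2 to 73.8), near the background. Of 17 regulators of cuticle genes at metamorphosis 9 were occupied (52.9%, 27.8 to 77.0). These include the ecdysone receptor genes EcR and usp, the hormone-induced factors br, Eip74EF and Eip75B, and the epidermal factor grh. Not occupied in the reproducible list were ftz-f1, Hr3, Hr4, Hr38, Hr39, Blimp-1, chinmo and rib. The pooled list gave 14 of the 17 regulators (82.4%, 56.6 to 96.2). The chitin-binding and Tweedle lists thus had shares below those of all genes in both lists, and the regulators had shares above them in both. The list for chitin synthesis, assembly and turnover was above them in the pooled list. Each of these lay outside an interval that treats genes as independent. Array members are not independent, so the intervals are too narrow: all Ccp84A genes, for example, had the same nearest reproducible summit, at 6760928. Gene length and the number of start sites differ between these lists, and their part in the counts was not tested.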

How the data were processed

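Chromatin immunoprecipitation sequencing of 2 libraries had been mapped to dm6 and peaks called, per the labels. No aligner, peak caller or reproducibility threshold is named in the sources used here. The deposited peak lists, 1 for each library, 1 pooled and 1 of peaks reproducible between libraries, give for each peak an interval, a summit, a signal value (the authors' enrichment score) and a −log10 q-value. The score was used only to rank peaks, the −log10 q-value (4.42 throughout the reproducible list) to describe them. Lists of 30000 peaks appear capped, so their length is no measure of binding, and no depth per library is known.

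Start sites were all transcript starts of protein-coding genes in Ensembl release 115. Coordinates are 1-based. Summits were the peak start plus the summit offset, with Python 3.11.15, numpy 2.4.6, pandas 2.3.3, scipy 1.17.1 and matplotlib 3.10.9, and the counting was checked on simulated data. Random placement was computed as summit density of the arm times window length. Shares have Clopper-Pearson and counts Poisson 95% intervals. With 1 group and genes that are not replicates, no test was made. The members and lists were chosen with earlier results of these data known. Named were Cpr genes with a reproducible summit within 500 bp or a summit in both replicate lists and the pooled list, the 5 nearest and 5 farthest, the ends, neighbours and nearest reproducible summit of each cluster, and the 15 most strongly occupied flanking genes. Other genes named were chosen after their values were seen. Alternatives changed the replicate, peak threshold, window, overlap, assignment, clusters, margins, flanks and members.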

Additional observations from a re-analysis of the deposited data

How the results depend on the processing

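The share of Cpr genes occupied in the reproducible list stayed below the share it was set against under all 10 alternatives. In 1 of them that was the share of short isolated genes with 1 start site, 5.03%. The Cpr share there was 4.17%, with an interval of 0.509 to 14.3 that holds the other. The share of Cpr genes was 0% with the stronger part of the list by signal value, beside 11.6% of all genes. With a 200 bp window it was 0%, beside 13.6%. With the gene body and 500 bp at either end in place of the start site it was 10% (7 of 70), beside 28.3%. It was 2.86% without replicate 2, beside 20.4% of all genes, and 1.43% without replicate 3, beside 21.5%. The pooled share was 4.29% with the stronger part of the list, beside 31.7% of all genes. It was 14.3% without replicate 2, beside 40.6%, and 11.4% without replicate 3, beside 45.5%. The flanking genes' share was 8% with the stronger part of the list, beside 11.6% of all genes. It was 20% without replicate 2, beside 20.4%, and 25% without replicate 3, beside 21.5%. This share was below that of all genes in 10 of 13 alternatives. The median distance was 21771 bp with the stronger part of the list, beside 11198 bp for all genes, and 13661 to 13994 bp without a replicate. The density ratio of the clusters stayed below 1 in all 9 alternatives, at 0.557 to 0.619 without a replicate and up to 0.850 with 20 kb margins. The causes of these shifts were not tested. The comparison with short isolated genes with 1 start site was chosen after seeing the data, and it leaves the reproducible share near the background. No paired analysis was possible because both libraries belong to 1 group. Unknown read depth, 2 libraries, and signal averaged over whole animals limit all values, and a gene without a listed peak is not shown to be unbound.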
